A study of Homo sapiens with 4 samples.

Results

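The genes described here are 108 protein-coding genes other than clustered histone genes that were near 0 in 1 untreated library of Jurkat cells and had reads in both libraries of cells treated with GNE987. They were chosen from the raw counts by a rule on CPM (the count divided by the library's total count and multiplied by 1000000). A gene entered with at most 0.5 CPM in untreated replicate 1 and at least 5 CPM in both GNE987 libraries. The deposited table held 26733 genes. Of these, 16197 were protein-coding and 134 of these passed the thresholds, of which 25 with names beginning HIST and TCF7L1 were set aside. Jurkat is an established human T-cell leukaemia line, and GNE987 is a compound that recruits the VHL ubiquitin ligase to BET bromodomain proteins so that they are degraded. The treated cells were the line at a labelled dose of 25 nmol for 24 h, with no volume given, and the untreated cells were the same line without the compound at 24 h. Each group had 2 libraries of polyadenylated RNA, no vehicle is named for the untreated cells, and the labels do not say that replicates came from separate cultures.

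BET proteins bind acetylated histones and help RNA polymerase II leave the promoter, and their loss lowers the transcription of many lineage genes. A T-cell line normally keeps the genes of other tissues silent, among them those of granulocytes, striated muscle, motile cilia and neurons. Many tissue-restricted genes start from promoters poor in CpG dinucleotides, while genes used by all cells mostly start from CpG islands.

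The total count was 17024157 and 16041022 in the GNE987 libraries and 18938465 and 18441248 in the untreated ones, and 3 counts, the floor for a gene without reads, equalled 0.158 to 0.187 CPM. Intervals and floors here cover counting error only. The untreated libraries stood apart from each other for these genes, though not for these alone. The GNE987 libraries held 25263 and 21956 reads of the 108 genes in all, or 0.148% and 0.137% of their counts. Untreated replicate 1 held 342, or 0.00181%, and untreated replicate 2 held 6501, or 0.0353%. Whether untreated replicate 2 represents untreated cells as its label says was not tested, and every value from it and every fold change given here carries that doubt. The T-cell label held: 13 of 14 listed T-cell identity genes had at least 5 CPM in both GNE987 libraries, with a summed level of 2251 and 2279 CPM there and 4588 and 4121 CPM in the untreated libraries. Untreated replicate 2 lay nearer the GNE987 libraries here too. LCK had 53.8 and 53.4 CPM with GNE987, against 1118 and 859 CPM in the untreated libraries. CD247 had 35.6 and 32.2 CPM with GNE987, against 273 and 215 CPM. By proportion these gaps between untreated libraries were smaller than in the members. In the members the rule fixed the low level in untreated replicate 1, so nothing is read from that difference.

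The near absence of these genes in untreated replicate 1 was set by the rule, and it did not extend to untreated replicate 2. All 108 genes had reads in untreated replicate 2, between 19 and 314 counts, and a level of at least 1 CPM. With untreated replicate 2 in the place of untreated replicate 1 in the rule, 0 genes would pass. In untreated replicate 1 the counts lay between 0 and 9, with 27 genes at 0 and 63 at or under 3 counts. Levels with GNE987 lay between 5.17 and 78.9 CPM in replicate 1 and between 5.24 and 69.6 CPM in replicate 2, with medians of 9.16 and 8.82 CPM. The mean of the GNE987 libraries had a median of 8.96 CPM over the members, beside 7.43 CPM over the 15760 coding genes with a count there, and 62 of the 108 had a mean under 10 CPM. Per length, the mean with GNE987 had a median of 2.90 FPKM (fragments per kilobase of gene length and per 1000000 fragments, the authors' values), beside 1.60 FPKM over the same coding genes.

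Near the thresholds the choice turned on few reads. HSPB6, a small heat shock protein of muscle, was the member nearest the 5 CPM limit and had 5.17 and 5.24 CPM with GNE987, against 0.0528 and 1.25 CPM in the untreated libraries. The Src family kinase gene LYN had 5.23 and 7.11 CPM with GNE987, against no count and 1.19 CPM in the untreated libraries. The uncharacterized AC010325.1 had 5.40 and 5.30 CPM with GNE987, against 0.0528 and 1.14 CPM in the untreated libraries. Just outside stood SAXO2 with 4.99 and 4.99 CPM with GNE987, against 0.211 and 1.57 CPM in the untreated libraries. The nucleic acid sensor gene ZBP1 had 4.93 and 5.55 CPM with GNE987, against 0.158 and 1.36 CPM in the untreated libraries. The carbonic anhydrase gene CA9 had 4.88 and 5.17 CPM with GNE987, against 0.264 and 2.01 CPM in the untreated libraries. At the upper limit in untreated replicate 1, IL3RA, LSMEM1 and FEZ1 lay inside at 0.475 CPM each, and MAPK8IP2, IFI27 and RBPMS lay outside at 0.528 CPM each. MAPK8IP2, a scaffold of JNK signalling, had 52.0 and 53.6 CPM with GNE987, against 0.528 and 14.6 CPM in the untreated libraries. The interferon-induced gene IFI27 had 9.81 and 8.17 CPM with GNE987, against 0.528 and 2.93 CPM in the untreated libraries. RBPMS, an RNA-binding protein gene, had 9.22 and 7.23 CPM with GNE987, against 0.528 and 2.33 CPM in the untreated libraries. In all 3 the libraries stood in the same order as in the members.

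Genes of granulocytes, monocytes and macrophages ranged from rank 2 by mean CPM with GNE987 (MPO) to rank 89 (MRC1). MPO, the peroxidase of granulocyte granules, had 65.0 and 66.5 CPM in the GNE987 libraries, with 0.106 CPM in untreated replicate 1 but 17.0 CPM in untreated replicate 2. ITGAM, which encodes the CD11b chain of the complement receptor of myeloid cells, had 38.6 and 34.8 CPM in the GNE987 libraries, with 0.158 CPM in untreated replicate 1 but 10.1 CPM in untreated replicate 2. CD14, the monocyte co-receptor for lipopolysaccharide, had 21.4 and 22.8 CPM in the GNE987 libraries, with 0.158 CPM in untreated replicate 1 but 4.93 CPM in untreated replicate 2. In each of these 3 genes the GNE987 libraries were close together, untreated replicate 1 was at or under 3 counts, and untreated replicate 2 lay between them. IL3RA, the alpha chain of the interleukin-3 receptor, had 23.3 and 22.9 CPM in the GNE987 libraries, with 0.475 CPM in untreated replicate 1 but 6.56 CPM in untreated replicate 2. The high-affinity IgG receptor gene FCGR1A had 14.3 and 15.0 CPM in the GNE987 libraries, with 0.0528 CPM in untreated replicate 1 but 3.25 CPM in untreated replicate 2. The macrophage mannose receptor gene MRC1 had 7.40 and 6.05 CPM in the GNE987 libraries, with 0.158 CPM in untreated replicate 1 but 1.19 CPM in untreated replicate 2. TMEM119, a marker of microglia in the brain, had 7.58 and 8.79 CPM with GNE987, against 0.106 and 2.11 CPM in the untreated libraries. All of them had the same order of libraries.

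Other genes of the blood lineages were of platelets and lymphocytes. GP1BA, the platelet receptor for von Willebrand factor, had 8.16 and 7.11 CPM in the GNE987 libraries, with 0.475 CPM in untreated replicate 1 but 2.01 CPM in untreated replicate 2. The inhibitory lymphocyte receptor gene BTLA had 12.0 and 9.16 CPM in the GNE987 libraries, with no count in untreated replicate 1 but 2.82 CPM in untreated replicate 2. IKZF4, the Ikaros family factor Eos, had 8.99 and 7.85 CPM with GNE987, against 0.211 and 2.06 CPM in the untreated libraries. ZC3H12D, which encodes a CCCH zinc finger protein of lymphocytes, had 6.23 and 5.86 CPM with GNE987, against 0.106 and 1.03 CPM in the untreated libraries. Together the 12 blood and immune genes had means with GNE987 between 6.04 and 65.7 CPM, and levels in untreated replicate 2 between 1.03 and 17.0 CPM.

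The set did not hold a whole myeloid programme. Of 15 listed myeloid genes 14 had a row, 9 were tested, 4 passed as higher (AZU1, CD14, CSF1R and LYZ) and 2 as lower (CTSG and CEBPE), and 3 were members. Over all 15910 genes tested 34.4% passed as higher and 37.2% as lower (edgeR quasi-likelihood test, Benjamini-Hochberg adjusted p below 0.05). MPO and ITGAM did not pass in that fit. ELANE, the granulocyte elastase, stood at 0.117 and 0.0623 CPM with GNE987, against no count in either untreated library. CTSG, the granule protease cathepsin G, had 27.4 and 29.3 CPM with GNE987, against 165 and 130.5 CPM in the untreated libraries. CEBPE, the factor that drives granule genes, had 2.23 and 2.37 CPM with GNE987, against 85.2 and 71.1 CPM in the untreated libraries. CD33 had no count in either GNE987 library, against 0.0528 and 0.108 CPM in the untreated ones. The summed level of the myeloid list was 172 CPM in both GNE987 libraries, against 267 and 249.8 CPM in the untreated libraries. CTSG and CEBPE made up most of the untreated sum. The median log2 fold change of the 9 tested genes of the list was 2.93, beside -0.03 over all genes tested. The members MPO, ITGAM and CD14, whose direction the rule fixed, are in that median, so no rise of the list is read from it. Whether a few cells of another type or a low level in all cells carried the myeloid reads was not tested, since in bulk RNA fewer cells of a type and less RNA per cell cannot be told apart.

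**Figure D1:**
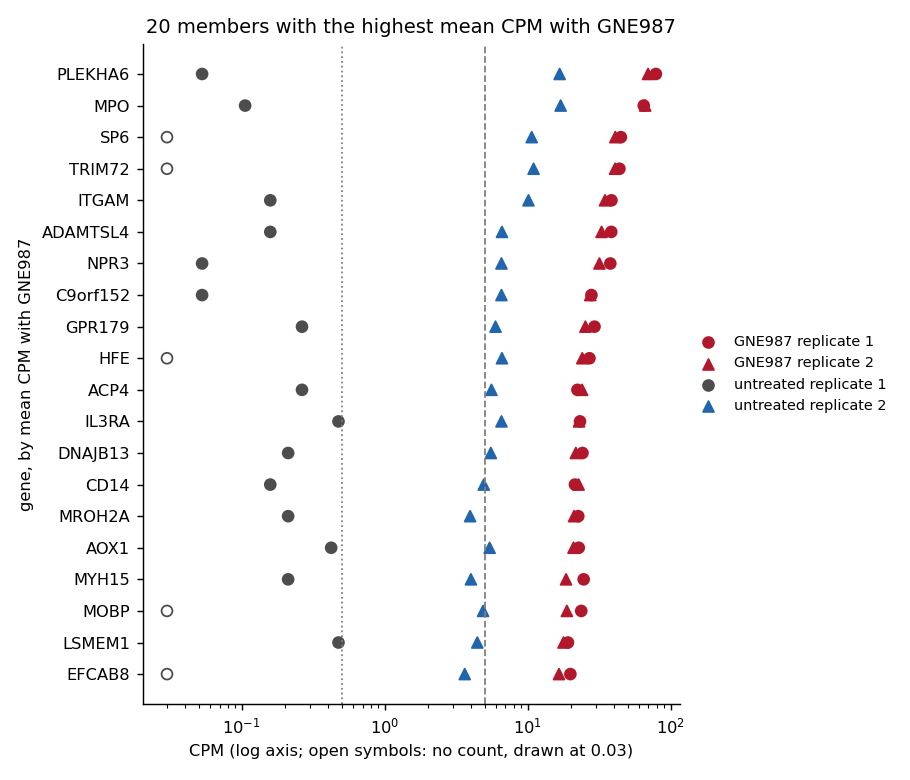
CPM in each library (log axis) of the 20 members with the highest mean CPM with GNE987, 1 gene per row; the dotted line marks 0.5 CPM and the dashed line 5 CPM, the thresholds of the rule. The GNE987 libraries overlap closely between 16.6 and 78.9 CPM, untreated replicate 2 lies between 3.63 and 17.0 CPM, and untreated replicate 1 lies at or under 0.475 CPM.

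Striated muscle genes made up a further group of 7. TRIM72, which helps reseal the muscle cell membrane, had 43.9 and 40.9 CPM in the GNE987 libraries, with no count in untreated replicate 1 but 11.0 CPM in untreated replicate 2. MYH15, a myosin heavy chain, had 24.7 and 18.6 CPM in the GNE987 libraries, with 0.211 CPM in untreated replicate 1 but 4.01 CPM in untreated replicate 2. ACTA1, the actin of skeletal muscle, had 10.4 and 11.8 CPM in the GNE987 libraries, with no count in untreated replicate 1 but 2.82 CPM in untreated replicate 2. These are genes of the contractile apparatus and its membrane, which are not typical of lymphoid cells. JSRP1, a protein of the junctional sarcoplasmic reticulum, had 9.75 and 10.8 CPM with GNE987, against 0.0528 and 3.25 CPM in the untreated libraries. The giant filament gene NEB, which encodes nebulin, had 5.99 and 6.36 CPM with GNE987, against 0.317 and 1.95 CPM in the untreated libraries. COLQ, the collagen tail that anchors acetylcholinesterase at the neuromuscular junction, had 9.34 and 9.10 CPM with GNE987, against 0.264 and 2.77 CPM in the untreated libraries. Of 20 listed muscle genes 14 had a row, 9 were tested, 6 passed as higher and 1, TNNT1, as lower. Over all genes tested 34.4% passed as higher. The 6 include the members MYH15 and ACTA1, whose direction the rule fixed. The cardiac troponin gene TNNT2, which passed as higher and is not a member, had 1.70 and 1.31 CPM with GNE987, against no count and 0.163 CPM in the untreated libraries. The cardiac actin gene ACTC1 likewise had 1.59 and 2.43 CPM with GNE987, against no count and 0.651 CPM in the untreated libraries. HSPB6, given above, completes the 7. The summed level of the list was 59.9 and 53.5 CPM with GNE987, against 28.2 and 35.5 CPM in the untreated libraries. The members MYH15 and ACTA1 are in that sum, so no rise of the list is read from it. TNNT1, the highest of the list in the untreated libraries, had 10.8 and 10.7 CPM with GNE987, against 19.4 and 19.2 CPM there.

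Genes of cilia, sperm and the germ line numbered 12. DNAJB13, a chaperone-like protein of the axonemal radial spoke, had 24.2 and 21.8 CPM in the GNE987 libraries, with 0.211 CPM in untreated replicate 1 but 5.53 CPM in untreated replicate 2. CFAP43, needed for flagella and motile cilia, had 18.3 and 15.0 CPM in the GNE987 libraries, with 0.0528 CPM in untreated replicate 1 but 3.80 CPM in untreated replicate 2. DRC1, of the dynein regulatory complex, had 11.2 and 8.10 CPM in the GNE987 libraries, with no count in untreated replicate 1 but 1.90 CPM in untreated replicate 2. The axonemal dynein heavy chain gene DNAH7 had 7.99 and 5.36 CPM with GNE987, against 0.0528 and 1.14 CPM in the untreated libraries. The microtubule protein gene TEKT2 had 8.34 and 7.85 CPM with GNE987, against 0.211 and 2.71 CPM in the untreated libraries. MEIG1, needed for mouse spermiogenesis, had 6.99 and 8.29 CPM with GNE987, against no count and 2.49 CPM in the untreated libraries. CATSPERG, of the sperm calcium channel, had 9.16 and 7.54 CPM with GNE987, against 0.370 and 2.28 CPM in the untreated libraries. ASTL, a protease of the egg, had 9.16 and 7.36 CPM with GNE987, against 0.211 and 2.17 CPM in the untreated libraries. EFCAB8, named in the cilia list, had 19.9 and 16.6 CPM in the GNE987 libraries, with no count in untreated replicate 1 but 3.63 CPM in untreated replicate 2. The other 3 were NUTM2B, TEX29 and NUP210L, with means of 7.90 to 16.3 CPM with GNE987. Of 14 listed motile cilia genes, all with a row, 8 were tested, 5 passed as higher and 1, ROPN1L, as lower. Over all genes tested 34.4% passed as higher. The 5 include the members EFCAB8 and CFAP43, whose direction the rule fixed. FOXJ1, the factor that switches on motile cilia genes, passed as higher at a low level, with 1.17 and 1.87 CPM with GNE987, against no count and 0.380 CPM in the untreated libraries. CFAP53, the gene of that list with the highest level with GNE987 and not a member, passed as higher with 21.6 and 19.1 CPM with GNE987, against 1.11 and 5.26 CPM in the untreated libraries. DNAH5 and TEKT1 had at most 2 counts in any library. The summed level of the list was 67.7 and 59.7 CPM with GNE987, against 9.56 and 21.3 CPM in the untreated libraries. The members EFCAB8 and CFAP43 are in that sum, so no rise of the list is read from it.

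Receptors and channels of excitable and endocrine tissues formed the group with the most named members, 14. NPR3, the clearance receptor for natriuretic peptides, had 37.9 and 31.8 CPM in the GNE987 libraries, with 0.0528 CPM in untreated replicate 1 but 6.56 CPM in untreated replicate 2. GPR179, a receptor of retinal bipolar cells, had 29.4 and 25.4 CPM in the GNE987 libraries, with 0.264 CPM in untreated replicate 1 but 5.96 CPM in untreated replicate 2. ADRA2B, an adrenergic receptor, had 11.2 and 10.8 CPM with GNE987, against 0.106 and 2.39 CPM in the untreated libraries. AVPR1B, the pituitary vasopressin receptor, had 9.22 and 9.60 CPM with GNE987, against no count and 2.01 CPM in the untreated libraries. LGR4 and LGR5, receptors for R-spondins, were both in the set. LGR4 had 12.4 and 10.5 CPM with GNE987, against 0.0528 and 2.87 CPM in the untreated libraries. LGR5, a marker of intestinal stem cells, had 11.0 and 8.98 CPM with GNE987, against no count and 2.77 CPM in the untreated libraries. The pacemaker channel gene HCN4 had 6.70 and 5.49 CPM with GNE987, against no count and 1.41 CPM in the untreated libraries. The GABA transporter gene SLC6A13 had 9.16 and 6.30 CPM with GNE987, against no count and 2.93 CPM in the untreated libraries. The olfactory receptor gene OR2B6 had 8.22 and 7.48 CPM with GNE987, against no count and 1.46 CPM in the untreated libraries. The orphan or metabolite receptors GPR61, GPBAR1 and GPR35 and the ATP-gated channel P2RX2 had means of 5.72 to 8.56 CPM with GNE987. Among genes of neural tissue, MOBP, a myelin protein of oligodendrocytes, had 23.7 and 18.8 CPM in the GNE987 libraries, with no count in untreated replicate 1 but 4.88 CPM in untreated replicate 2. FEZ1, an axonal transport adaptor, had 17.0 and 16.4 CPM with GNE987, against 0.475 and 4.83 CPM in the untreated libraries. The imprinted gene NNAT had 9.10 and 9.79 CPM with GNE987, against 0.317 and 3.42 CPM in the untreated libraries.

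Transcription factors were few. SP6, a factor of tooth and skin development, had 44.9 and 41.1 CPM in the GNE987 libraries, with no count in untreated replicate 1 but 10.7 CPM in untreated replicate 2. GCM1, the factor of placental trophoblast, had 12.6 and 9.16 CPM in the GNE987 libraries, with 0.211 CPM in untreated replicate 1 but 2.22 CPM in untreated replicate 2. The other 5 were zinc finger genes of unknown role here: ZNF843, ZNF844, ZNF556, ZNF600 and ZIK1. ZIK1 had 8.16 and 6.05 CPM with GNE987, against no count and 1.41 CPM in the untreated libraries. ZNF600 had 7.05 and 6.42 CPM with GNE987, against no count and 1.63 CPM in the untreated libraries. Together the 7 factor genes had a median mean of 7.76 CPM with GNE987.

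Secreted and adhesion proteins numbered 10. ADAMTSL4, a glycoprotein of the fibrils that hold the lens, had 38.5 and 32.9 CPM in the GNE987 libraries, with 0.158 CPM in untreated replicate 1 but 6.62 CPM in untreated replicate 2. TG, the thyroglobulin from which thyroid hormone is made, had 15.3 and 14.1 CPM with GNE987, against 0.264 and 3.80 CPM in the untreated libraries. LEFTY1, an inhibitor of Nodal in left-right patterning, had 7.58 and 5.98 CPM with GNE987, against no count and 1.63 CPM in the untreated libraries. FGF18, a growth factor of cartilage and bone, had 6.70 and 6.61 CPM with GNE987, against 0.0528 and 1.68 CPM in the untreated libraries. The cadherin-related CDHR4 had 12.0 and 11.7 CPM with GNE987, against no count and 3.15 CPM in the untreated libraries. WFIKKN2, an inhibitor of myostatin, had 6.05 and 5.74 CPM with GNE987, against no count and 1.41 CPM in the untreated libraries. The other 4 were CRISPLD2, ITIH3, the integrin gene ITGA9 and the protocadherin gene DCHS1, with means of 7.65 to 10.6 CPM with GNE987. In the lists for fibroblasts and matrix and for endothelium only ADAMTSL4 and NPR3 were members. Of the other genes of these lists, the collagen gene COL1A1 passed as higher with 7.64 and 7.42 CPM with GNE987, against 1.37 and 2.06 CPM in the untreated libraries. The endothelial gene ESAM also passed as higher with 2.82 and 3.43 CPM with GNE987, against 1.27 and 1.41 CPM in the untreated libraries. PECAM1, the highest of the endothelial list in the untreated libraries, passed as lower. It had 29.6 and 32.2 CPM with GNE987, against 113 and 83.2 CPM in the untreated libraries. The endothelial list summed to 71.8 and 68.0 CPM with GNE987, against 115 and 91.9 CPM in the untreated libraries. The surface protein gene THY1 did not pass and had 58.3 and 66.1 CPM with GNE987, against 61.9 and 64.2 CPM in the untreated libraries. COL3A1 had no count with GNE987, and VWF had at most 0.125 CPM there.

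Enzymes and transporters numbered 10. HFE, which regulates iron uptake, had 27.1 and 24.1 CPM in the GNE987 libraries, with no count in untreated replicate 1 but 6.62 CPM in untreated replicate 2. ACP4, an acid phosphatase of testis and enamel, had 22.3 and 24.1 CPM in the GNE987 libraries, with 0.264 CPM in untreated replicate 1 but 5.59 CPM in untreated replicate 2. AOX1, the aldehyde oxidase of liver, had 22.8 and 20.9 CPM in the GNE987 libraries, with 0.422 CPM in untreated replicate 1 but 5.42 CPM in untreated replicate 2. CYP27A1, a mitochondrial enzyme of bile acid synthesis, had 7.64 and 6.92 CPM with GNE987, against no count and 1.90 CPM in the untreated libraries. ENTPD2, which hydrolyses extracellular ATP, had 9.93 and 7.79 CPM with GNE987, against no count and 2.17 CPM in the untreated libraries. ASNS, the asparagine synthetase whose low level makes lymphoblastic leukaemia sensitive to asparaginase, had 6.70 and 6.73 CPM with GNE987, against 0.106 and 1.95 CPM in the untreated libraries. The peroxidase gene LPO, the neighbour of MPO, had 6.58 and 7.48 CPM with GNE987, against 0.0528 and 1.08 CPM in the untreated libraries. The other 3 were NAALADL1, SGK2 and the mitochondrial carrier SLC25A18, with means of 11.4 to 17.0 CPM with GNE987.

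The 33 members outside these groups included the highest of all. PLEKHA6, a pleckstrin homology domain protein, had 78.9 and 69.6 CPM in the GNE987 libraries, with 0.0528 CPM in untreated replicate 1 but 16.8 CPM in untreated replicate 2. C9orf152 had 28.0 and 27.4 CPM with GNE987, against 0.0528 and 6.56 CPM in the untreated libraries. MROH2A had 22.6 and 21.1 CPM with GNE987, against 0.211 and 3.96 CPM in the untreated libraries. LSMEM1 had 19.1 and 17.8 CPM with GNE987, against 0.475 and 4.45 CPM in the untreated libraries. In all 3 untreated replicate 1 was far under and untreated replicate 2 between it and the treated libraries. The rest had means with GNE987 of 18.2 CPM or less. ANKRD65 had 11.5 and 8.85 CPM with GNE987, against no count and 1.41 CPM in the untreated libraries. The GTPase gene DIRAS1 had 8.46 and 8.54 CPM with GNE987, against no count and 2.17 CPM in the untreated libraries. CDKL2, a cyclin-dependent kinase-like protein, had 8.69 and 6.61 CPM with GNE987, against no count and 1.36 CPM in the untreated libraries. LRCOL1 had 7.93 and 6.05 CPM with GNE987, against no count and 2.06 CPM in the untreated libraries. The exchange factor gene ARHGEF37 had 5.93 and 5.98 CPM with GNE987, against no count and 1.84 CPM in the untreated libraries. These complete the 27 genes with no count in untreated replicate 1, whose mean with GNE987 was at least 37.2-fold to at least 272-fold (SP6) above the floor of 3 counts in that library.

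Per length the order changed. MPO led with 20.3 and 21.7 FPKM with GNE987, against 0.0255 and 4.28 FPKM in the untreated libraries, followed by ACP4 with 18.3 and 20.6 FPKM with GNE987, against 0.167 and 3.68 FPKM in the untreated libraries. IL3RA came next with 15.0 and 15.4 FPKM with GNE987, against 0.237 and 3.40 FPKM in the untreated libraries. PLEKHA6, first in CPM, was at rank 10 in FPKM. NEB, with the most exonic bases of the set, was last, with a mean of 0.228 FPKM.

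All 108 genes passed the filter on low counts of the fit over all genes, and the rule itself fixed their direction. Of these, 95 passed the threshold as higher with GNE987, beside 34.4% of all 15910 genes tested, and nothing is read from that count because the rule used the same libraries. The log2 fold change lay between 2.55 and 4.20 with a median of 3.29, beside -0.03 over all genes tested, and its standard error between 0.56 and 1.36 (n = 2 libraries a group). The standard error was widest where untreated replicate 2 was high in reads and untreated replicate 1 had almost none: PLEKHA6 had 3.48 ± 1.36, MPO 3.28 ± 1.33 and TRIM72 3.28 ± 1.30, and none of these 3 passed. The 13 that did not pass had a median of 0 counts in untreated replicate 1, and the 95 that did had a median of 3. The call depended on the test: 40 passed in the Wald test of DESeq2 (23.7% of all genes with an adjusted p there) and 28 with robust estimation in edgeR (32.4% of all genes tested). With library size alone the median log2 fold change was 2.95 for the members, and the median of all genes shifted by -0.37. The call also depended on single libraries. Without GNE987 replicate 1 the fit called 4 of the 108, beside 13.2% of all genes tested, and without GNE987 replicate 2 it called 1, beside 13.1%. Without either one of the untreated libraries it called 108, beside 40.3% of all genes tested without untreated replicate 2 and 33.3% without untreated replicate 1. The median log2 fold change was 6.78 without untreated replicate 2 and 2.29 without untreated replicate 1. The authors' deposited table gave 40 of the 108 genes an adjusted p below 0.05, beside 17.7% of all its genes listed as higher, and their log2 fold changes there lay between 2.56 and 4.20.

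In untreated replicate 2 the CPM was between 13.8% and 39.9% of the mean of the GNE987 libraries, with a median of 24.5% and quartiles of 21.8% and 27.6%. For 93 of 108 genes the 95% binomial interval of the share, from the counts (Clopper-Pearson), held that median. The 27 genes with no count in untreated replicate 1 had a median of 24.5%, as had the 81 genes with 1 to 9 counts there. For the 25 histone genes that passed the same thresholds the median was 24.0%, with a range of 16.2% to 41.6%. Across the 108 genes the log2 CPM in untreated replicate 2 correlated with the log2 mean with GNE987 at r = 0.932, a description over genes that share the same libraries. In all 108 genes untreated replicate 2 lay below both GNE987 libraries. The rule fixed the place of untreated replicate 1, so nothing is read from the count of genes with both GNE987 libraries above both untreated ones, which was 36.2% over all genes tested.

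**Figure D2:**
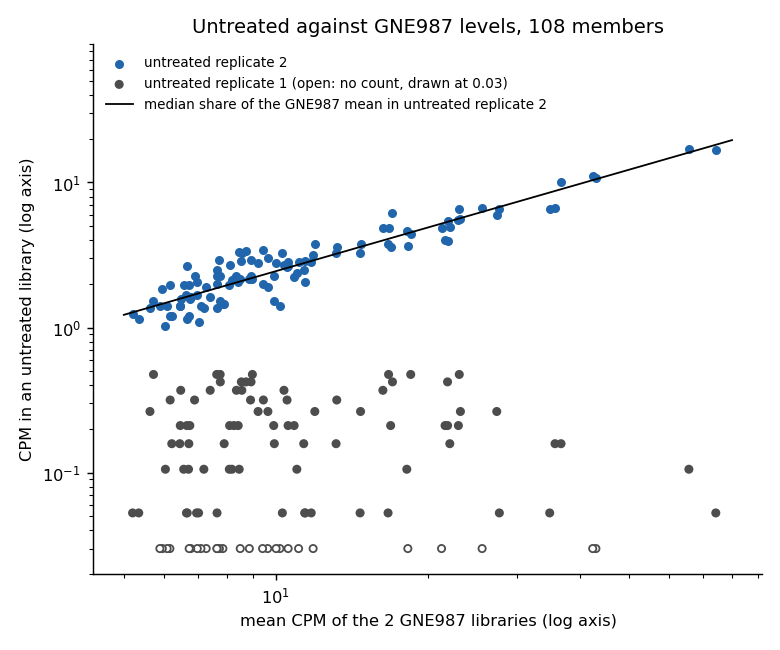
CPM in each untreated library (vertical log axis) against the mean CPM of the GNE987 libraries (horizontal log axis) for the 108 genes; blue points are untreated replicate 2, grey points untreated replicate 1, and the line marks 24.5% of the GNE987 mean. The blue points follow the line over the whole range of levels, and the grey points lie at or under 0.475 CPM, with 27 open points at no count.

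Members of the different roles had overlapping shares in untreated replicate 2. Medians of the groups lay between 23.5% for cilia, sperm and germ line genes and 28.9% for the 3 neural genes. The lowest single shares were those of ANKRD65 at 13.8% (95% interval 8.88% to 20.6%), ZNF843 at 15.3% and LPO at 15.4% (95% interval 9.27% to 24.4%). The highest were those of RASL11B at 39.9% (95% interval 28.7% to 54.6%), RNF225 at 39.1% (95% interval 29.1% to 51.7%) and WDR97 at 38.5% (95% interval 28.8% to 50.8%). ZNF843 had 9.52 and 10.3 CPM with GNE987, against 0.211 and 1.52 CPM in the untreated libraries. RASL11B, a small GTPase gene, had 6.34 and 6.98 CPM with GNE987, against 0.211 and 2.66 CPM in the untreated libraries. The ring finger gene RNF225 had 8.75 and 8.17 CPM with GNE987, against 0.106 and 3.31 CPM in the untreated libraries. WDR97 had 9.10 and 8.35 CPM with GNE987, against 0.422 and 3.36 CPM in the untreated libraries. The CPM values depend on the scaling: with TMM or RLE factors in place of the total count the median share was 19.6% and 19.3%.

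**Figure D3:**
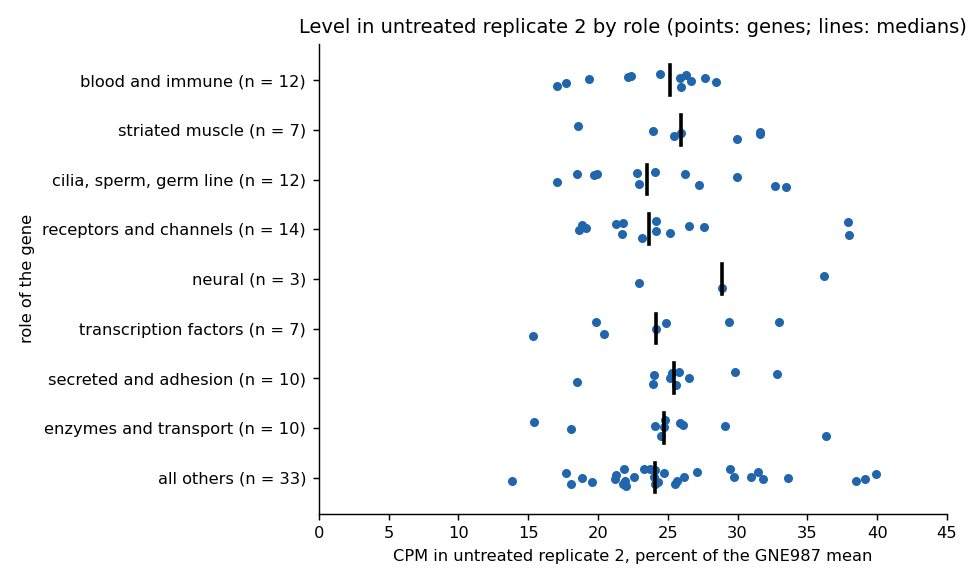
Level in untreated replicate 2 as percent of the mean with GNE987 (horizontal axis), 1 point per gene, by role of the gene; black lines are medians. The groups overlap, with medians between 23.5% and 28.9%.

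The rule required 5 CPM in both GNE987 libraries, so it removed genes on which they disagreed near that limit. Among the members the ratio of GNE987 replicate 2 to replicate 1 had a median of 0.925 and lay between 0.671 and 1.36, and all 108 genes were within 1.5-fold. GNE987 replicate 2 was the lower of the pair for 73 of 108 genes.

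The members lay on 21 chromosomes, with 11 each on chromosomes 1, 2 and 19, and some lay beside each other. MPO is on chromosome 17 from 58269856 to 58280935 (GRCh38, GENCODE 29), and LPO ends 1.34 kb from it. ITGAM is on chromosome 16 from 31259967 to 31332892, with TRIM72 at a distance of 28.4 kb and ZNF843 at 99.7 kb. ADRA2B and ASTL on chromosome 2 are 7.61 kb apart, TMEM236 and MRC1 on chromosome 10 are 8.48 kb apart, and LRCOL1 and P2RX2 on chromosome 12 are 8.23 kb apart. On chromosome 6 HFE, AL031777.3 and OR2B6 lie within the region of the clustered histone genes, at 16.5, 0.227 and 63.4 kb from a histone gene that passed the same thresholds. FCGR1A on chromosome 1 overlaps HIST2H2BF, which had 56.0 and 50.8 CPM with GNE987, against 0.0528 and 11.1 CPM in the untreated libraries.

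The rule did not use the genes just upstream of the members, on the side of their 5′ end, except those that were members themselves. The nearest upstream coding gene lay on the same strand for 72.2% of members (78 of 108), beside 53.0% of all coding genes tested. It lay on the same strand and within 50 kb for 60.2%, beside 39.7%. It also had a mean of at least 10 CPM with GNE987 for 43.5% of members, beside 19.7%. These upstream genes passed as higher in 42 of 91 tested cases (46.2%, against 32.8% of the upstream neighbours of all coding genes) and as lower in 25 (27.5% against 41.5%). Of all 108 upstream neighbours 7 were themselves members, whose direction the rule fixed, and 2 had names beginning HIST. Within 10 kb 25 of 39 passed as higher (64.1% against 35.8%), and 4 of these 42 upstream neighbours were themselves members. With library size alone in place of TMM the shares higher were 34.1% against 23.4% at any distance. Downstream neighbours passed as higher in 35.6% of 87 tested cases, beside 34.8% for all coding genes.

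**Figure D4:**
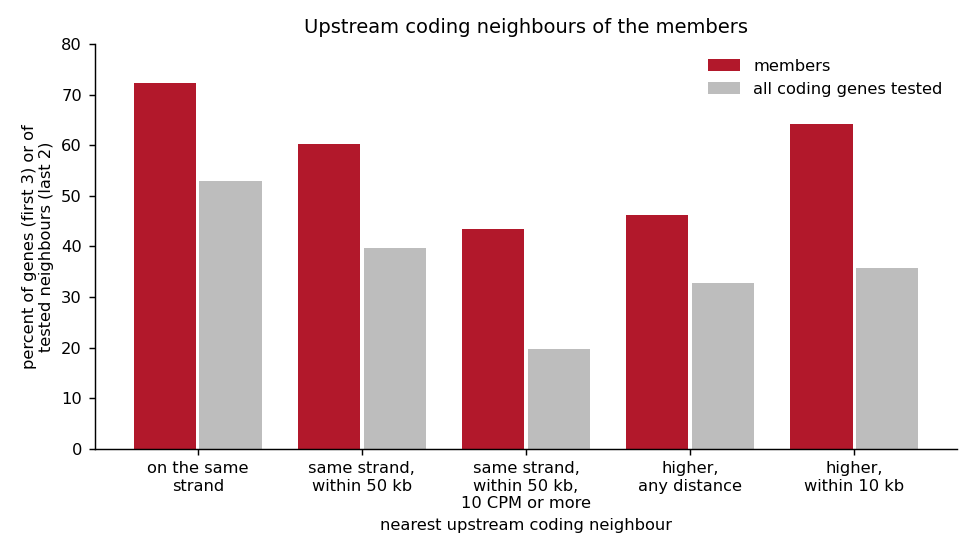
The nearest upstream coding neighbour of the 108 members (red) and of all coding genes tested (grey); the first 3 pairs of bars give the percent of genes whose neighbour lay on the same strand, without and with limits on distance and level, and the last 2 pairs the percent of tested neighbours that passed as higher with GNE987. The red bar is taller in all 5 pairs, most of all for neighbours within 10 kb (64.1% and 35.8%).

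Several of these upstream genes were strongly expressed in all libraries. Upstream of NAALADL1, CDCA5, whose end lay 7.75 kb upstream, had 1191 and 1204 CPM with GNE987, against 448 and 657 CPM in the untreated libraries; CDCA5 encodes sororin, which holds sister chromatids together. Upstream of NUP210L, the tropomyosin gene TPM3, whose end lay 0.188 kb upstream, had 1039 and 1065 CPM with GNE987, against 805 and 876 CPM in the untreated libraries. In both pairs the upstream gene passed as higher and stood far above the member in every library. Upstream of AOX1, SGO2, whose end lay 2.09 kb upstream, had 167 and 149.7 CPM with GNE987, against 55.2 and 77.3 CPM in the untreated libraries; SGO2 encodes a shugoshin of meiosis and mitosis. Upstream of CD14, NDUFA2, whose end lay 5.04 kb upstream, had 155 and 153 CPM with GNE987, against 86.9 and 105 CPM in the untreated libraries. Upstream of FGF18, the nucleolar protein gene NPM1, whose end lay 8.52 kb upstream, had 1290 and 1266 CPM with GNE987, against 2107 and 1852 CPM in the untreated libraries. The upstream gene of FGF18, NPM1, did not pass, although it passed as lower with library size alone, while those of AOX1 and CD14 passed as higher. MPO had TSPOAP1 upstream on the same strand at 20.3 kb, which passed as higher. TSPOAP1 had 623 and 590 CPM with GNE987, against 27.4 and 169 CPM in the untreated libraries. PLEKHA6 had PPP1R15B upstream on the same strand at 25.7 kb, which also passed as higher. SP6 had SP2 upstream on the opposite strand at 40.3 kb, which passed as lower. Whether reads that run on from an upstream gene contributed to a member's count was not tested, since the table gives counts per gene only.

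The libraries do not mark strand, so reads in exons shared by genes on opposite strands cannot be told apart by strand. No source used here says how such reads were counted. Exons of 32 members overlapped exons of another gene in the table, 27 of them on the opposite strand, and for 6 at least 20% of exonic bases were shared. These were KRBA2, FAM184B, LEFTY1, ASNS, AL031777.3 and DNAJB13. AL031777.3 shared 18.2% with the histone gene HIST1H2AD on the same strand, which had at most 0.125 CPM in any library. It shared 25.3% with the histone pseudogene HIST1H1PS1 on the opposite strand. HIST1H1PS1 had 3.05 and 2.68 CPM with GNE987, against no count and 0.651 CPM in the untreated libraries. Which of these genes the reads came from was not tested. FAM184B shared 53.2% of its exonic bases with MED28 on the other strand, which had 22.8 and 17.8 CPM with GNE987, against 150.3 and 116 CPM in the untreated libraries. JSRP1 shared 12.1% with OAZ1, the antizyme of polyamine synthesis, which had 3344 and 3625 CPM with GNE987, against 749.5 and 1527 CPM in the untreated libraries. For 16 members an overlapping gene had at least 5 CPM in untreated replicate 1, where the member itself had at most 0.5 CPM. FCGR1A, NUTM2B and LEFTY1 have near-identical copies, and no source used here says how the counting divided their reads.

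The genomic span of the members had a median of 21.1 kb, beside 31.0 kb for all coding genes tested, the exonic length 4.41 kb beside 5.02 kb, and the largest number of exons in a transcript 8 beside 10. In the first 200 bases of the longest coding transcript the observed over expected number of CpG dinucleotides had a median of 0.464 for the 108 members, beside 0.804 for 12824 coding genes tested. A ratio of at least 0.6 was found for 47 members (43.5%), beside 73.8% of coding genes. MPO, CD14, MROH2A, LSMEM1 and EFCAB8 were among the members with 0 CpG there, while SP6 and ADAMTSL4 had ratios of 0.81 and 0.83. This measure was chosen after the data were seen. The rule kept genes near 0 in untreated replicate 1, while the coding genes tested had passed a filter on low counts. No set of other genes near 0 in untreated cells was compared, so the difference is not read as particular to the members.

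**Figure D5:**
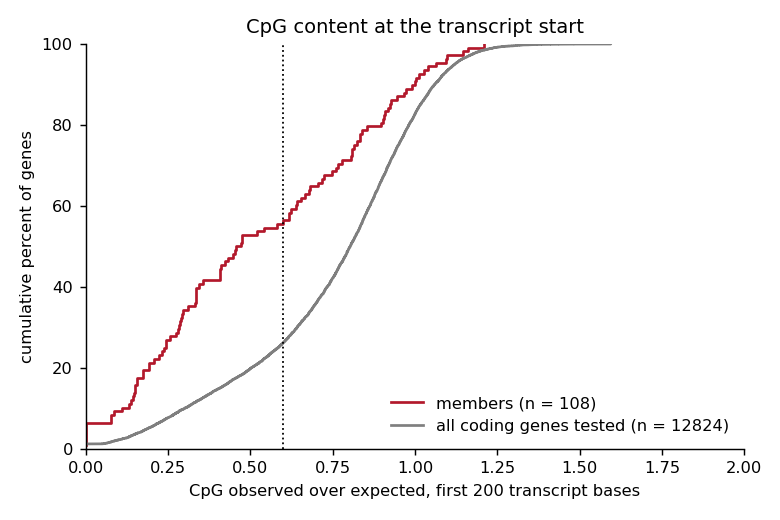
Cumulative percent of genes (vertical axis) against the observed over expected CpG ratio in the first 200 bases of the longest coding transcript, for the 108 members (red) and 12824 coding genes tested (grey); the dotted line marks 0.6. The red curve lies above the grey one over nearly the whole range, with medians of 0.464 and 0.804.

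Promoters from the RefSeq table (GRCh38.p14) matched 77 of 108 members, or 71.3%, so comparisons of motifs over the set are void, because fewer than 80% have a sequence. The TATA box letters TATAAA stood 40 to 20 bases before the start in 3 of the 77, ACTA1, IL3RA and HSPB6, and in 2.59% of 12804 coding promoters. The 100 bases before the start of each are printed 5′ to 3′ with TATAAA in capitals, as the 3 members with this element.
ACTA1 (chr1:229434095-229434194, minus strand): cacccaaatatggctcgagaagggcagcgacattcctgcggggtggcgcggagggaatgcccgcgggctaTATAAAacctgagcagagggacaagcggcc
IL3RA (chrX:1336685-1336784, plus strand): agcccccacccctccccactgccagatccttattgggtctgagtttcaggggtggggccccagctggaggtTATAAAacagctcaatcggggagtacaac
HSPB6 (chr19:35757030-35757129, minus strand): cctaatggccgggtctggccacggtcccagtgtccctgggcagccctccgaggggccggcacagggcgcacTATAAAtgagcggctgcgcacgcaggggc
The element starts 30 bases before the start in ACTA1 and 29 bases before it in IL3RA and HSPB6. In the 250 bases before the start, on either strand, TGANTCA stood in 3 of 77 member promoters (4.31% of coding promoters), TGACGTCA in 0 (2.62%), GGGCGG in 31 (62.2%) and CCAAT in 30 (34.7%). A match is a description of letters and not of a bound factor.

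Markers of further cell types gave no other members. The lists for B cells, NK cells, neurons and glia, epithelium, germ line, hepatocytes and pluripotency held 0 of the 108 genes, and the erythroid and megakaryocyte list held GP1BA. Members grouped above by role as neural or germ line genes are outside these lists. The lists were chosen with earlier results of these data known, so nothing is read from how many members each held. Among T-cell identity genes 14 were tested, 2 passed as higher and 9 as lower. Of 4 erythroid and megakaryocyte genes tested 3 passed as higher, the member GP1BA among them, and 0 as lower. Of 3 B-cell genes 1 passed as higher and 2 as lower, and of 7 NK-cell genes 2 passed as higher and 1 as lower. Of 5 fibroblast and matrix genes 2 passed as higher and 0 as lower, and of 3 endothelial genes 2 passed as higher and 1 as lower. The members ADAMTSL4 and NPR3, whose direction the rule fixed, are counted among these as higher. In the epithelial list the 1 gene tested passed as lower, in the hepatocyte list 1 of 2 passed as higher, and in the pluripotency list the 1 gene tested passed as higher. Of the 18 neural genes with a row 11 were tested, 3 passed as higher and 2 as lower. The epithelial list had a summed level of 2.58 and 2.68 CPM with GNE987, against 8.71 and 7.27 CPM in the untreated libraries. The germ line list, of which 10 of 23 genes had a row, had 51.0 and 44.4 CPM with GNE987, against 51.2 and 50.4 CPM in the untreated libraries, and 0 of its 2 tested genes passed. The hepatocyte list had 5.11 and 4.74 CPM with GNE987, against 0.898 and 1.52 CPM in the untreated libraries, and the pluripotency list 6.40 and 6.11 CPM, against 0.581 and 2.93 CPM.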

How the data were processed

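Polyadenylated RNA of 2 GNE987 and 2 untreated Jurkat libraries was sequenced from Illumina TruSeq libraries, a kit that does not mark strand, per the labels' protocols. HISAT2 2.2.0 and the build hg38 are named in the submitters' processing notes; no source used here names the counter, annotation or strand setting. The deposited table holds raw counts per gene, which entered all tests. The deposited normalized signal equals each count over a size factor of its library (100% of values within 0.01) and was not used further. The deposited FPKM values served to set genes side by side per length. The deposited log2 fold change, p-value and adjusted p-value are the authors' own comparison, by a test not given here.

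The members and lists were chosen with earlier results of these data known. The role groups were formed after the values were seen. The naming rule gives values in every library for the 20 highest members, listed genes, genes without a count in untreated replicate 1, genes nearest each threshold and the extreme shares. All other members are given by group, and values of some single genes are not reported here.

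All 26733 genes, filtered with filterByExpr (15910 kept), were tested with edgeR 4.0.16 (TMM, quasi-likelihood F test, R 4.3.3), Benjamini-Hochberg threshold 0.05. All identifiers matched GENCODE 29. Neighbours are the nearest coding genes that do not overlap. Replicate numbers did not pair the samples: their deviations correlated at r = -0.00578 over genes. Alternatives were RLE, upper-quartile and library size scaling, other filters, DESeq2 1.42.0, robust estimation, a replicate block, and each library left out. P-values here reflect spread between libraries that is possibly technical only.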

Additional observations from a re-analysis of the deposited data

How the results depend on the processing

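The number of members was 165 with at most 1 CPM in untreated replicate 1, 226 with at least 2.5 CPM and 39 with at least 10 CPM in both GNE987 libraries. It was 76 with at most 0.25 CPM and 146 with TMM or RLE scaling. With single libraries left out of the rule it ranged from 0 to 121, the 0 being without untreated replicate 1. The median share in untreated replicate 2 was 19.6% with TMM and 19.3% with RLE scaling, and 23.8% to 25.4% with a single GNE987 library. The number of members called higher was 31 of 39 tested with a filter of 10 CPM (39.1% of all genes tested), 28 with robust estimation (32.4%), 40 with DESeq2 (23.7%), and 1 to 108 with a library left out (13.1% to 40.3%), where a group of 1 is assumed to vary like the other group. It lay between 101 and 104 with other scalings or no filter (18.9% to 39.4%). With the replicate number as a block it was 82, all among the 95; the numbers do not pair the samples. The share of upstream neighbours called higher was 64.1% within 10 kb, 48.1% within 50 kb and 34.1% with library size alone. Of 23 named members, whose direction the rule fixed, only 17 passed in the main fit. Of these 17, 13 lost their call with DESeq2 and 16 with robust estimation. The log2 fold changes of the named members lay between 2.88 and 3.69 without GNE987 replicate 1, and between 3.01 and 3.83 without GNE987 replicate 2. The cause of these differences was not tested. Counts were lowest in untreated replicate 1, by the rule, with 63 members at or under 3 counts.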

Other observations

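Genes of other biotypes also passed the thresholds used for the coding members. There were 69 of them, among them 24 lincRNA, 19 antisense and 9 processed pseudogene entries, and their CPM in untreated replicate 2 was 12.0% to 46.4% of the mean with GNE987, with a median of 26.6%. FER1L4, a transcribed pseudogene, had 37.0 and 32.0 CPM in the GNE987 libraries, with 0.317 CPM in untreated replicate 1 but 8.84 CPM in untreated replicate 2. The antisense transcript LRP4-AS1 had 26.8 and 26.1 CPM in the GNE987 libraries, with 0.158 CPM in untreated replicate 1 but 7.21 CPM in untreated replicate 2. SNORD3A, a U3 small nucleolar RNA without a poly(A) tail in its mature form, had 39.9 and 32.7 CPM in the GNE987 libraries, with 0.106 CPM in untreated replicate 1 but 8.68 CPM in untreated replicate 2. AC243772.2, which overlaps exons of FCGR1A on the opposite strand, had 26.5 and 25.3 CPM in the GNE987 libraries, with 0.0528 CPM in untreated replicate 1 but 5.04 CPM in untreated replicate 2.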
